A study of Rattus norvegicus with 2 samples.

Results

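The 43 collagen chain genes of the rat optic nerve cultures were taken as all genes whose symbol is Col followed by a type number, the letter a and a chain number, out of 25399 genes listed in the files. By the class of the molecule they build, 11 are fibrillar chains, 6 are basement membrane chains, 9 are fibril-associated (FACIT) chains and 17 fall in other classes. The rule works on symbols. Col6a3 and Col21a1 were not among the symbols and were not analysed here.

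The data are 2 single-cell libraries of mixed cultured glia from the optic nerve, 1 from wild-type (WT) Sprague Dawley rats and 1 from Nuc1 rats, which carry a spontaneous insertion mutation in Cryba1, the gene of βA3/A1-crystallin. The labels give both libraries the age of postnatal day 7, and no treatment, whereas the study's methods name pups 2 days old for its astrocyte cultures and state no age where they describe the sequenced mixed cultures. The number of animals behind a library, whether they were pooled and the time in culture are not given in the sources used here. After filtering, the WT library held 1961 cells with 33814309 UMIs (unique molecular identifiers, each standing for 1 captured RNA molecule) and a median of 14050 per cell, and the Nuc1 library held 1780 cells with 34644332 UMIs and a median of 16567.5. The libraries shared 2 cell barcodes. With 1 library per genotype the replicate error is unknown and no test between genotypes was made: intervals below are exact 95% intervals for counting error only, and each difference is a difference between these 2 libraries.

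The labels could be checked only in part. Cryba1 had 0 UMIs in both libraries (at 3 counts, an upper limit of 0.0869 UMIs per 1000000 UMIs, or CPM, in WT and 0.0838 CPM in Nuc1), so the mutated gene says nothing about which library is which. The Y-linked gene Eif2s3y had 3 UMIs, all in 1 barcode, of 2107 barcodes in the WT library, and 912 UMIs in 384 of 1929 barcodes in the Nuc1 library. Kdm5d, also Y-linked, had 0 UMIs in WT and 210 in Nuc1. Y-linked UMIs were thus almost absent from the WT library, and genotype, sex of the pups and library preparation cannot be told apart in the comparisons below. Where cells with a UMI of either Y-linked gene were left out, an alternative added after the data were seen, collagen chains made 0.509% of the UMIs of the Ccn3 and Rspo3 cluster of the Nuc1 library against 0.509% with all its cells. The share stayed below that of WT in each of the 6 fibroblast-like clusters. It went from 0.0787% to 0.0661% in Nuc1 astrocyte-like cells, from 0.0740% to 0.0571% in ciliated-like cells and from 0.448% to 0.531% in the Gldn and Fbln2 cluster, where 15 of 26 Nuc1 cells were left. At these levels a male cell can lack a Y-linked UMI, so the cells left need not be female.

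Collagens are secreted proteins in which α chains wind around each other into a stiff helix, and each type needs its own set of chains. Types I, III, V and XI build the banded fibrils of connective tissue, type IV forms the mesh of basement membranes, FACIT collagens sit on fibril surfaces, and types VI, VIII, XV and XVIII form filaments, networks or links between basement membrane and stroma. In the optic nerve, collagens fill the connective tissue septa, the meninges and the load-bearing tissue of the nerve head, and line the basement membranes of vessels and astrocyte end feet.

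Promoter sequence is shown for 2 pairs of chains described below, the type IV pair Col4a1 and Col4a2, and the type VIII pair Col8a1 and Col8a2. Col4a1 and Col4a2 start on opposite strands of chromosome 16 with 76 bases between their starts, the whole of which is shown because these genes share it as a common promoter. For Col8a1 and Col8a2, which lie on different chromosomes, the 100 bases before each start are shown. The sequences are from RefSeq on the rat build GRCr8, plus strand, at chr16:84885521-84885596, chr11:56246682-56246781 and chr5:143870669-143870768. Capitals mark each match of the GC box letters GGGCGG on either strand, read on the printed strand as GGGCGG or CCGCCC.
Col4a1 and Col4a2: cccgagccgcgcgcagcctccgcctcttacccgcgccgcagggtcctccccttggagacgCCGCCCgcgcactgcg
Col8a1: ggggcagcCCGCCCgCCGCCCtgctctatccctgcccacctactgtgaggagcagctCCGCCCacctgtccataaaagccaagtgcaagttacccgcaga
Col8a2: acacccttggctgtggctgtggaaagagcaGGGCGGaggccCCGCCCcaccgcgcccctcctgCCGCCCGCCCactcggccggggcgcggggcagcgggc
The shared type IV stretch holds 1 match, the Col8a1 stretch 3 and the Col8a2 stretch 4, of which 2 overlap. None holds CCAAT, CCCTCCCC or TATAAA on either strand. Of windows of the same length before the start of all genes in the table (33469 windows), 18.1% of the 76-base and 21.6% of the 100-base windows hold GGGCGG on either strand. A match describes the letters and not a bound site. All 43 chains matched a RefSeq symbol, and 34 had a promoter window in the table.

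Cells were grouped without the collagen genes, so that the levels below did not define the groups. Clusters carrying the fibroblast markers Dcn and Lum, which code for small proteoglycans of the collagen matrix, held 1741 of the WT cells (88.8%) and 1264 of the Nuc1 cells (71.0%). They fell into 6 clusters, named here by genes that were high in them: Ccn3 and Rspo3 (633 WT and 359 Nuc1 cells), Penk and Actg2 (523 and 191), Cldn11 and Thbd (312 and 232), Inmt and Cyp26b1 (53 and 367), and the smaller Top2a (146 and 78) and Cdkn3 (74 and 37) clusters. Genes of dividing cells summed to 3687 CPM in WT and 3366 in Nuc1 in the Top2a cluster and to 1152 and 973 in the Cdkn3 cluster, against at most 38.5 in any of the other 4. The makeup differed most for the Inmt and Cyp26b1 cluster, and genotypes were compared cluster by cluster for that reason. The cells of a cluster also differed between the libraries in the naming genes themselves. Inmt and Cyp26b1 summed to 295.6 CPM in WT and 1737 in Nuc1 cells of their cluster, whereas Ccn3 and Rspo3 summed to 3679 and 953 in theirs, Penk and Actg2 to 2138 and 1556, and Cldn11 and Thbd to 1259.7 and 1246.

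Of the other cells, 108 WT and 355 Nuc1 cells were astrocyte-like, 14 and 104 ciliated-like, 49 and 10 oligodendrocyte-lineage-like, 27 and 21 macrophage-like, and 22 and 26 formed a cluster led by Gldn and Fbln2 that is left unnamed. Each name rested on a marker list without collagens. The 12 astrocyte markers summed to 43191 CPM in the WT and 54122 in the Nuc1 astrocyte-like cells, with Gfap and Mt3 leading. The ciliated list summed to 7099.6 and 6773 in ciliated-like cells, which also held the astrocyte list at 19947 and 25092. In oligodendrocyte-lineage-like cells their own list summed to 14213 and 9046 and the astrocyte list to 7816 and 8680. In macrophage-like cells the macrophage list summed to 16669 and 6845 and the astrocyte list to 5793 and 8564. The astrocyte list was thus above the macrophage list in the Nuc1 macrophage-like cells. The fibroblast list did not vanish outside fibroblasts: its 12 genes summed to 456 and 446 CPM in astrocyte-like cells, against 4563 and 2969 in all fibroblast-like cells. In oligodendrocyte-lineage-like cells most of that sum was Pdgfra, a receptor that oligodendrocyte precursors also use. Endothelial markers summed to 84.7 CPM in WT and 140.1 in Nuc1 cells of the Inmt and Cyp26b1 cluster and to 11.7 and 47.6 in all fibroblast-like cells. Markers of mural cells, another source of type IV collagen, summed to 11.5 and 9.29 in that cluster and to 1.92 and 4.63 in all fibroblast-like cells. The Nuc1 macrophage-like cells were shallow, with a median of 1716 UMIs.

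WT cells gave 323693 collagen UMIs and Nuc1 cells 178280. In fibroblast-like clusters about 1 UMI in 100 came from a collagen chain in the WT library, and fewer did in the Nuc1 library. The share was 1.05% (95% interval 1.04 to 1.05) in WT and 0.509% (0.503 to 0.515) in Nuc1 cells of the Ccn3 and Rspo3 cluster. It was 1.30% and 0.765% in the Penk and Actg2 cluster, 0.898% and 0.553% in the Cldn11 and Thbd cluster, 0.925% and 0.587% in the Top2a cluster and 0.996% and 0.555% in the Cdkn3 cluster. The Inmt and Cyp26b1 cluster had the highest share in both libraries and the smallest gap, 1.38% in WT and 1.15% in Nuc1. Cell by cell, the lower and upper quartiles of the Ccn3 and Rspo3 cluster were 0.837% and 1.23% in WT, both above the upper quartile of 0.597% in Nuc1 (lower quartile 0.401%).

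**Figure D1:**
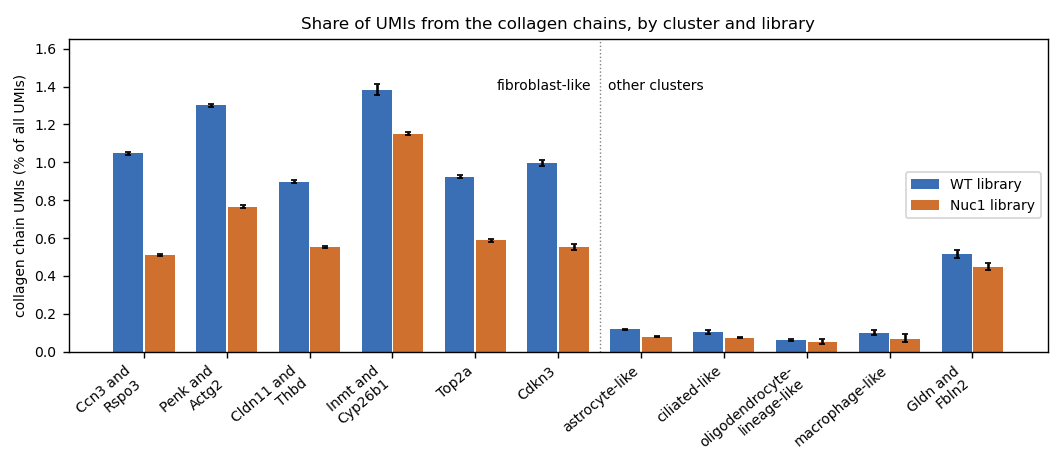
Collagen chain UMIs as a percentage of all UMIs (y axis) in each cluster (x axis) for the WT and Nuc1 libraries, with bars for the pooled share and error lines for the exact 95% counting interval. The Nuc1 bar is lower than the WT bar in each of the 6 fibroblast-like clusters, and all clusters outside them except Gldn and Fbln2 lie near 0.1% or below.

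The fibroblast markers Dcn and Lum were also lower in the Nuc1 library, which stands beside every fibroblast result below. In the Ccn3 and Rspo3 cluster Dcn was at 1853 CPM in WT and at 937 CPM in Nuc1, and 518 and 298 in the Inmt and Cyp26b1 cluster. Lum was at 1194 and 466, and 484 and 280.2, in the same clusters. Both were lower in Nuc1 in all 6 fibroblast-like clusters. The whole fibroblast list of 12 genes summed to 5057 CPM in WT and 3287 in Nuc1 in Ccn3 and Rspo3, but to 3396 and 3429.9 in Inmt and Cyp26b1. Whether their difference and that of the collagens share a source was not tested.

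Fibrillar chains made 82.8% of the collagen UMIs of fibroblast-like cells in WT and 79.9% in Nuc1, basement membrane chains 4.02% and 5.29%, FACIT chains 2.23% and 2.12%, and the remaining classes 10.9% and 12.7%. Of the 43 chains, 24 had at least 100 UMIs over all kept cells, 15 had 1 to 99 UMIs and 4 had none. Of the 24, 17 were highest in a fibroblast-like cluster in WT, against 35.9% of all genes with at least 100 UMIs, and 19 in Nuc1, against 34.4%. The Inmt and Cyp26b1 cluster alone was highest for 11 chains in WT and 13 in Nuc1, and 13 of the 24 chains had the same highest group in both libraries. No share of all genes was taken for these counts, so they are not set against genes in general. UMIs of a 3′ kit count 1 per molecule and are not divided by length, but the efficiency of capture at the 3′ end can differ between genes, so levels of different chains are set side by side only as captured molecules.

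**Figure D2:**
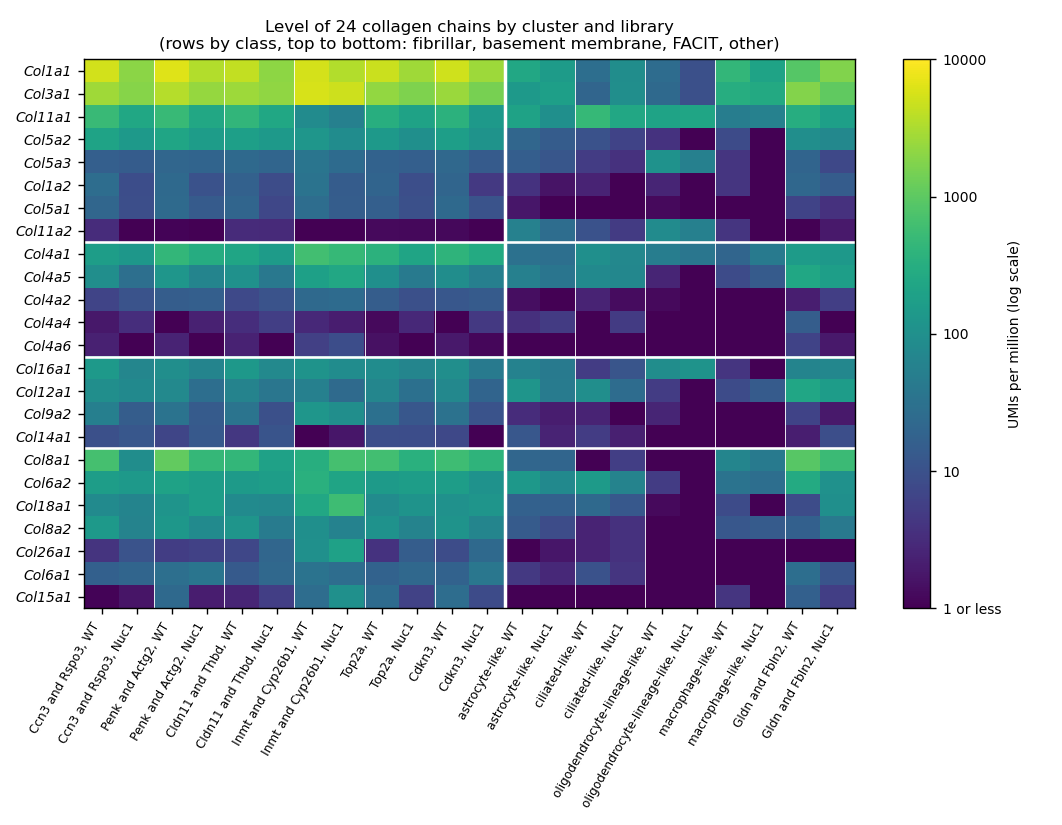
Levels of the 24 chains with at least 100 UMIs (y axis, ordered by class) in each cluster and library (x axis), coloured by CPM on a log scale from 1 or less upwards. Col1a1 and Col3a1 are the brightest in fibroblast-like clusters, whereas Col11a1, Col11a2 and Col5a3 are also bright in glial clusters.

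Col1a1 and Col3a1, the chains of the most abundant fibrils of connective tissue, together made between 73.3% and 81.0% of the collagen UMIs in each fibroblast-like cluster and library. Col1a1, the major chain of type I collagen, was highest in WT in the Penk and Actg2 cluster at 6289 CPM and lowest in the Cldn11 and Thbd cluster at 4246. In Nuc1 it was highest in the Inmt and Cyp26b1 cluster at 3455, close to the Penk and Actg2 cluster at 3411, and lowest in the Ccn3 and Rspo3 cluster at 2048. Col3a1, the chain of type III collagen, stood apart in the Inmt and Cyp26b1 cluster: 5640.0 in WT and 5038 in Nuc1, against at most 3529 and 2343 in any of the other 5 fibroblast-like clusters.

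Col1a2, the partner of Col1a1 in type I collagen, was captured far less often, at 33.0 CPM in its highest WT cluster, Inmt and Cyp26b1. In Nuc1 it was about as high in Gldn and Fbln2, at 14.8 (8 UMIs), as in Inmt and Cyp26b1, at 14.6 (83 UMIs). The type V chains, which set the diameter of fibrils, differed in place. Col5a2 was highest in the Penk and Actg2 cluster (228 in WT and 162 in Nuc1) and lowest of the fibroblast-like clusters in Inmt and Cyp26b1 in Nuc1 (87.0). Col5a1 was highest in Inmt and Cyp26b1, at 27.3 and 15.1. Col5a3 was the exception, since oligodendrocyte-lineage-like cells held the most, 108 in WT and 56.2 in Nuc1, where 10 cells gave 6 UMIs.

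Type XI collagen forms mixed fibrils with types II and V, and its chains were abundant outside fibroblasts too. Col11a1 was highest in the Ccn3 and Rspo3 cluster in WT (516) and in the Penk and Actg2 cluster in Nuc1 (251). It was low in the Inmt and Cyp26b1 cluster, 84.7 in WT and 54.9 in Nuc1, the opposite of the order seen for Col3a1. Ciliated-like cells held Col11a1 at 481 and 246, near the highest fibroblast values. Col11a2 was mostly glial: 84.7 and 56.2 in oligodendrocyte-lineage-like cells and 57.8 and 26.9 in astrocyte-like cells, against at most 3.28 in any fibroblast-like cluster.

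Of the basement membrane chains, Col4a1 and Col4a2 build the common type IV network. Col4a1 was highest in the Inmt and Cyp26b1 cluster at 613 CPM in WT and 486 in Nuc1, and lowest of the fibroblast-like clusters in Ccn3 and Rspo3 at 166 and 131. Col4a2 had the same highest cluster at far lower values, 23.0 and 25.4. Col4a5, which pairs with Col4a6 in smooth muscle and some epithelia and with Col4a3 and Col4a4 in kidney, reached 243 in the Gldn and Fbln2 cluster of WT and 249 in the Inmt and Cyp26b1 cluster of Nuc1. Col4a6 was highest in the same places at 6.39 (3 UMIs) and 8.77. Col4a4 was low throughout, at most 14.9 in the Gldn and Fbln2 cluster of WT (7 UMIs) and 5.47 in the Cldn11 and Thbd cluster of Nuc1.

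The FACIT chains did not share a place. Col12a1, which decorates type I fibrils, was highest in the Gldn and Fbln2 cluster at 234 in WT and 163 in Nuc1, followed in WT by astrocyte-like cells at 123. Col16a1 was highest in the Ccn3 and Rspo3 cluster in WT (146) and in oligodendrocyte-lineage-like cells in Nuc1 (112, 12 UMIs). Col9a2, known from cartilage, was highest in Inmt and Cyp26b1 at 128 and 93.3. Col14a1 was low throughout, highest in astrocyte-like cells in WT (12.1) and in Penk and Actg2 in Nuc1 (12.9).

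Among the remaining chains Col8a1, a network-forming chain found in vessel walls and beneath the corneal endothelium, was the most abundant: 1102 in the Penk and Actg2 cluster of WT and 659 in the Inmt and Cyp26b1 cluster of Nuc1. Its partner Col8a2 was highest in Ccn3 and Rspo3 in WT (148) and in Penk and Actg2 in Nuc1 (82.7). Col6a2, a chain of the beaded filaments of type VI, was highest in Inmt and Cyp26b1 at 343 and 215. Col6a1 was highest there in WT at 33.0 and in the Cdkn3 cluster in Nuc1 at 38.2.

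The multiplexin chains, which link basement membranes to the stroma, were also highest in the Inmt and Cyp26b1 cluster. Col18a1, the source of endostatin, was at 247 there in WT and 581 in Nuc1. Col15a1 was at 27.3 there in WT, hardly above the Cdkn3 (27.1), Top2a (24.8) and Penk and Actg2 (23.1) clusters. In Nuc1 it was at 103 there and at most 8.10 in any other fibroblast-like cluster. Col26a1, a short chain of unclear assembly, was at 102 and 194 there, against at most 23.1 in any of the other 5 fibroblast-like clusters.

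The other 19 chains had fewer than 100 UMIs each. Col6a4, Col6a5, Col10a1 and Col28a1 had 0 UMIs in both libraries, which allows at most 0.103 CPM of WT and 0.132 of Nuc1 fibroblast-like cells at 3 counts. Over both libraries Col20a1 had 97 UMIs, Col7a1 76, Col22a1 26, Col27a1 19, Col9a3 17, Col2a1 14, Col17a1 13, Col13a1 8, Col19a1 8, Col25a1 6, Col4a3 5, Col24a1 4, Col9a1 3, and Col6a6 and Col23a1 1 each. Col20a1 was highest in oligodendrocyte-lineage-like cells in both libraries (10.3 in WT and 9.36, 1 UMI, in Nuc1). Col7a1, the anchoring fibril chain, was highest in the Inmt and Cyp26b1 cluster in both, at 15.8 in WT and 8.24 in Nuc1.

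Between the libraries, most chains were lower in Nuc1 within each fibroblast-like cluster. Chains with at least 20 UMIs over both libraries in a cluster were compared as the ratio of Nuc1 to WT level. In the Ccn3 and Rspo3 cluster 11 of 24 chains were at least 2-fold lower (6.08% of all genes measured there) and 1, Col26a1, at least 2-fold higher (3.86%). In the Penk and Actg2 cluster 6 of 22 were lower (5.61%) and 0 higher (3.37%). In the Cldn11 and Thbd cluster 7 of 23 were lower (5.17%) and 3 higher (4.03%). In the Top2a cluster 5 of 21 were lower (4.07%) and 1 higher (3.49%), and in the Cdkn3 cluster 7 of 20 were lower (9.03%) and 2 higher (3.33%). The Inmt and Cyp26b1 cluster differed in balance, with 2 of 22 lower (4.01%) and 3 higher (9.53%).

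Over the 6 clusters this made 38 of 132 pairs of a chain and a cluster at least 2-fold lower and 10 at least 2-fold higher. No share of all genes was taken for the pooled counts in this paragraph, so they are not set against genes in general. The median log2 ratio of the measured chains was -0.56 in Ccn3 and Rspo3, -0.61 in Penk and Actg2, -0.38 in Cldn11 and Thbd, -0.41 in Inmt and Cyp26b1, -0.67 in Top2a and -0.75 in Cdkn3. Over all genes measured in these clusters the median lay between -0.03 and 0.04. With cells holding a Y-linked UMI left out, the counts were 40 pairs lower and 10 higher. The count of higher pairs was 5 after thinning each cell to 5000 UMIs and 4 among pairs with at least 100 UMIs, where 32 and 30 pairs were lower.

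**Figure D3:**
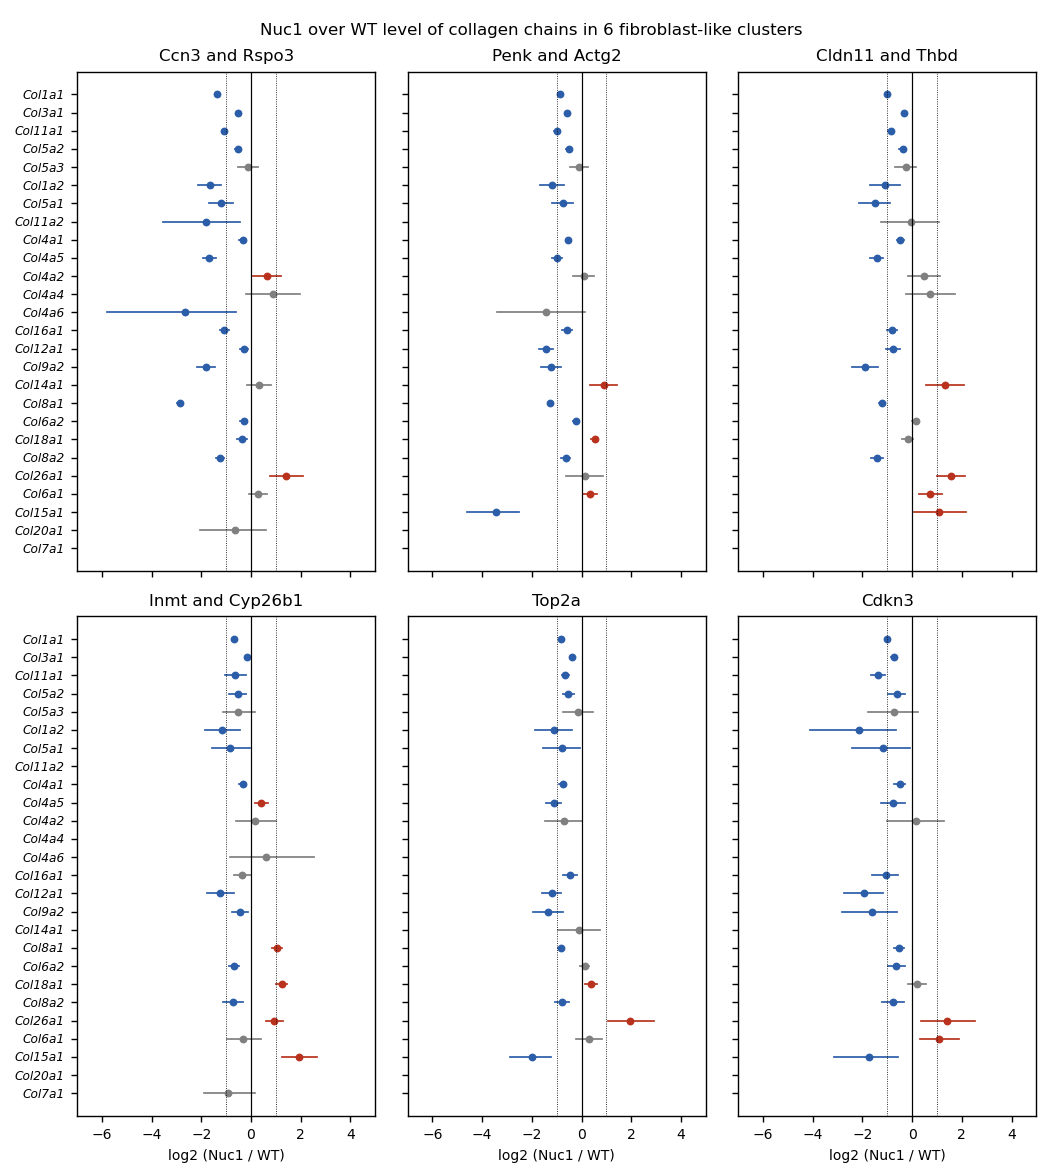
Log2 of the Nuc1 over WT level (x axis, from -7 to 5) for the chains (y axis) with at least 20 UMIs in the cluster shown, for 6 fibroblast-like clusters, with exact 95% counting intervals, blue where the interval lies below 0, red where above and grey where it includes 0; dotted lines mark 2-fold. Blue points prevail in each cluster, and Col4a5, Col8a1, Col15a1, Col18a1 and Col26a1 are red in Inmt and Cyp26b1.

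Of the 19 chains measured in all 6 clusters, 10 had a ratio whose interval lay below 1 in every one of them: Col1a1, Col1a2, Col3a1, Col4a1, Col5a1, Col5a2, Col8a2, Col9a2, Col11a1 and Col12a1. The same held for 3.48% of the 7607 genes measured in all 6. The 10 are fibrillar chains, FACIT chains and 1 chain each of type IV and type VIII. Col1a1 was at 0.387 (0.379 to 0.396) of its WT level in Ccn3 and Rspo3 and at 0.620 (0.599 to 0.642) in Inmt and Cyp26b1, the ends of its range. Col3a1 was less different, from 0.596 (0.559 to 0.634) in the Cdkn3 cluster to 0.893 (0.864 to 0.924) in Inmt and Cyp26b1. Col11a1 ranged from 0.388 (0.317 to 0.472) in Cdkn3 to 0.648 (0.490 to 0.872) in Inmt and Cyp26b1.

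Col1a2 was lower by at least 2-fold in all 6 clusters, from a ratio of 0.228 (0.0586 to 0.640) in Cdkn3, where 4 Nuc1 UMIs were counted, to 0.475 (0.312 to 0.709) in Cldn11 and Thbd. Col5a1 lay between 0.354 (0.227 to 0.537) in Cldn11 and Thbd and 0.591 (0.437 to 0.790) in Penk and Actg2. Col9a2 was lowest at 0.273 (0.187 to 0.388) in Cldn11 and Thbd and nearest to WT at 0.731 (0.583 to 0.925) in Inmt and Cyp26b1. For Col12a1 the range ran from 0.264 (0.149 to 0.440) in Cdkn3 to 0.823 (0.730 to 0.928) in Ccn3 and Rspo3. Col8a2 ran from 0.373 (0.316 to 0.440) in Cldn11 and Thbd to 0.642 (0.568 to 0.724) in Penk and Actg2. Col16a1 was below 1 in all 6, lowest at 0.475 (0.421 to 0.534) in Ccn3 and Rspo3, but its interval reached 1 in Inmt and Cyp26b1.

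Other chains differed in direction between clusters. Col8a1 was at 0.138 (0.125 to 0.151) of its WT level in Ccn3 and Rspo3, 0.420 (0.400 to 0.441) in Penk and Actg2 and 0.428 (0.394 to 0.464) in Cldn11 and Thbd, and at 2.07 (1.81 to 2.38) in Inmt and Cyp26b1. In levels, Col8a1 went from 666 CPM in WT to 91.7 in Nuc1 in Ccn3 and Rspo3 and from 319 to 659 in Inmt and Cyp26b1. At equal depth of 5000 UMIs per cell, 74.6% of 627 WT and 27.2% of 357 Nuc1 cells of Ccn3 and Rspo3 had a Col8a1 UMI (84.0% and 42.3% before thinning), whereas 0 of 14 WT and 1.96% of 102 Nuc1 ciliated-like cells did. The low Col8a1 level in Nuc1 was thus spread over many cells of the cluster.

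Col18a1 was at 0.781 (0.684 to 0.891) in Ccn3 and Rspo3, 1.44 (1.31 to 1.59) in Penk and Actg2 and 2.35 (2.02 to 2.76) in Inmt and Cyp26b1. Col15a1 was at 0.0916 (0.0413 to 0.177) in Penk and Actg2, where 9 Nuc1 UMIs were counted, 0.250 (0.135 to 0.432) in Top2a, 0.299 (0.114 to 0.669) in Cdkn3, 2.13 (1.04 to 4.50) in Cldn11 and Thbd and 3.78 (2.40 to 6.32) in Inmt and Cyp26b1. Col4a5 was at 0.314 (0.263 to 0.373) in Ccn3 and Rspo3, 0.375 (0.312 to 0.447) in Cldn11 and Thbd and 0.459 (0.368 to 0.570) in Top2a, and at 1.32 (1.11 to 1.60) in Inmt and Cyp26b1. Each of these chains was therefore lower in at least 1 cluster and higher in Inmt and Cyp26b1, where the WT library had 53 cells. The differences between clusters were not tested.

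Of the 19 chains measured in all 6 clusters, Col26a1 alone had no ratio below 1: it was at 2.68 (1.72 to 4.25) in Ccn3 and Rspo3, 2.92 (1.98 to 4.39) in Cldn11 and Thbd, 3.87 (2.07 to 7.62) in Top2a and 2.68 (1.29 to 5.74) in Cdkn3, at 1.91 (1.5 to 2.46) in Inmt and Cyp26b1, and nearest to 1 in Penk and Actg2, 1.10 (0.652 to 1.82). Its levels outside Inmt and Cyp26b1 were low, at most 23.1 CPM. Col6a1 was higher in the Cdkn3 cluster at 2.14 (1.26 to 3.65), and Col14a1 in Cldn11 and Thbd at 2.49 (1.48 to 4.27). Col4a4 had at least 20 UMIs in only 2 fibroblast-like clusters, at 1.83 (0.871 to 3.90) in Ccn3 and Rspo3 and 1.66 (0.849 to 3.28) in Cldn11 and Thbd. The rarer chains Col4a6, at 0.161 (0.0181 to 0.666) (2 Nuc1 UMIs), and Col11a2, at 0.283 (0.0850 to 0.744) (5 Nuc1 UMIs), were lower in Ccn3 and Rspo3. Pooled over all fibroblast-like cells, Col26a1 was at 7.74 (6.71 to 8.96) and Col18a1 at 2.25 (2.15 to 2.36), values that also carry the larger part of Inmt and Cyp26b1 cells in the Nuc1 library.

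The ratio of 2 chains within a cluster does not depend on the total of that cluster. For the partners Col4a1 and Col4a2, which share the printed promoter stretch, UMIs stood at 32.4 to 1 in the Cdkn3 cluster of WT and 12.6 to 1 in the Ccn3 and Rspo3 cluster of Nuc1, the ends of the 12 values of fibroblast-like clusters. All 6 Nuc1 values, 12.6 to 23.2, lay below all 6 WT values, 24.3 to 32.4. Col4a1 was lower in Nuc1 in each cluster, while the Col4a2 ratio lay between 0.619 and 1.55, with an interval above 1 in Ccn3 and Rspo3 only. The nearest of these values, 23.2 and 24.3, both belong to the Top2a cluster, and their counting intervals overlap widely, since Col4a2 had 23 UMIs there in Nuc1 and 60 in WT.

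Col8a1 and Col8a2 varied more over the fibroblast-like clusters. Their ratio ran from 1.46 to 1 in Ccn3 and Rspo3 to 11.2 to 1 in Inmt and Cyp26b1, both in Nuc1. In the same clusters of WT the ratios were 4.49 and 3.26. Over the fibroblast-like clusters and libraries the span was 7.68-fold for this pair, 2.57-fold for Col4a1 to Col4a2 and 2.78-fold for Col4a5 to Col4a6. It was 3.27-fold for Col1a1 to Col1a2, 3.87-fold for Col6a2 to Col6a1 and 4.22-fold for Col5a2 to Col5a1. Whether the place of the starts plays a part in these spans was not tested. Col11a1 to Col5a1 had the widest span, since it was 3.11 in WT and 3.64 in Nuc1 in Inmt and Cyp26b1 and between 13.8 and 33.5 in the other 5 fibroblast-like clusters. In astrocyte-like cells it was 113 and 294, with 5 Col5a1 UMIs in WT and 3 in Nuc1.

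Over the fibroblast-like clusters Col1a1 to Col1a2 ran from 169 to 553, a span in which the few Col1a2 UMIs weigh. Col5a2 to Col5a1 ran there from 4.63 to 19.6, Col6a2 to Col6a1 from 2.88 to 11.1, and Col4a5 to Col4a6 from 28.4 to 79. Within fibroblast-like clusters Col9a2 to Col9a3 could be formed in 1 cluster and library, at 81, and Col4a4 to Col4a3 in 2, at 10 and 15. Their second chains were almost absent there. The last of these pairs and the pair Col1a1 to Col3a1 were chosen after their values were seen. Col1a1 to Col3a1 was lower in Nuc1 than in WT in each of the 6 clusters, for example 1.93 in WT and 1.09 in Nuc1 in Ccn3 and Rspo3, and 0.988 and 0.686 in Inmt and Cyp26b1.

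**Figure D4:**
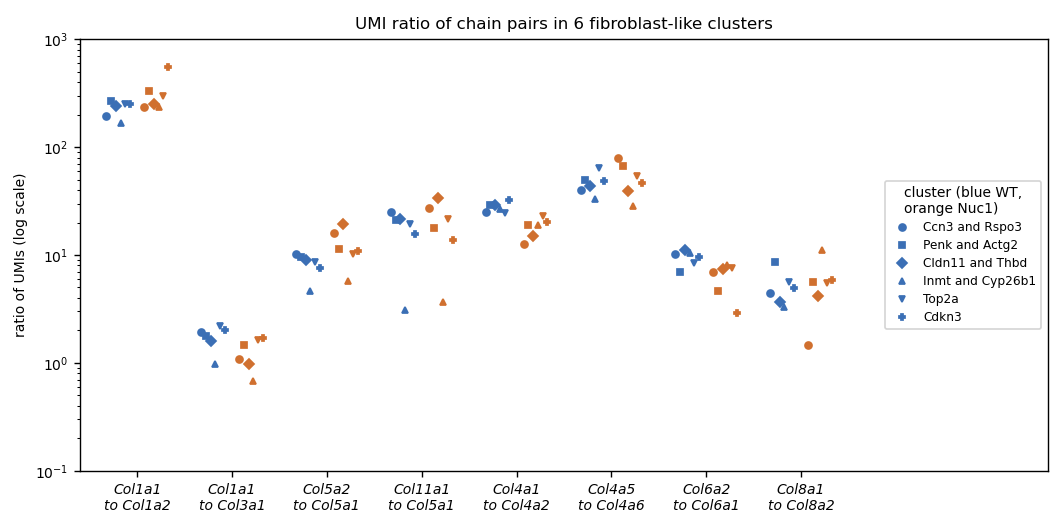
Ratio of the UMIs of chain pairs (y axis, log scale) for each pair (x axis) in the 6 fibroblast-like clusters, with 1 symbol per cluster, blue for WT and orange for Nuc1. The Nuc1 symbols of Col4a1 to Col4a2 lie below the WT symbols, and those of Col8a1 to Col8a2 spread from 1.46 to 11.2.

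Outside fibroblasts collagen chains made a small share of the UMIs: 0.118% in WT and 0.0787% in Nuc1 astrocyte-like cells, 0.104% and 0.0740% in ciliated-like cells, 0.0630% and 0.0515% in oligodendrocyte-lineage-like cells, 0.0998% and 0.0690% in macrophage-like cells and 0.515% and 0.448% in the Gldn and Fbln2 cluster. The direction of the last turned without cells holding a Y-linked UMI, which put Nuc1 at 0.531%. In macrophage-like cells with no UMI of Dcn and Lum, 16 in WT and 12 in Nuc1, the share was 0.0129% and 0.0267%. Of all 27 WT macrophage-like cells, 15 held no collagen UMI. The makeup differed from that of fibroblasts. Col1a1 and Col3a1 gave 33.1% (WT) and 42.6% (Nuc1) of the collagen UMIs of astrocyte-like cells, 4.63% and 25.1% in ciliated-like cells and 7.74% and 3.64% in oligodendrocyte-lineage-like cells, but 76.1% and 69.4% in macrophage-like cells.

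Collagen RNA set free by fibroblasts can enter droplets of other cells, and its part in the values below was not tested. Each chain was set beside fibroblast markers as a percentage of the level in fibroblast-like cells of the same library. The 12 markers did not stand at 1 value in astrocyte-like cells: their median was 17.6% in WT and 14.8% in Nuc1. Dcn, at 4.04% and 8.66%, and Lum, at 3.61% and 5.12%, were among the lowest, Fbln1 stood at 58.7% and 15.1% and Pdgfrb at 38.5% and 17.4%, and Sfrp1, at 416% and 104%, was above the fibroblast level itself. Col1a1 stood at 4.63% and 5.58%, and Col3a1 at 4.81% and 6.53%, close to Dcn and Lum. Col11a1 stood at 44.5% and 51.2%, Col6a2 at 75.9% and 46.8%, Col12a1 at 159% and 113%, and Col11a2 at 2758% and 2345%. Col11a2 was the 1 chain whose interval lay above the value of every marker in both libraries, and Col11a1 in WT lay between Pdgfrb and Fbln1.

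The summed fibroblast list stood at 10.0% of its fibroblast level in WT and 15.0% in Nuc1 astrocyte-like cells. There 9 of 15 chains with at least 20 UMIs in WT (98.7% of all genes with as many) and 9 of 17 in Nuc1 (96.2%) stood above it. In ciliated-like cells 5 of 5 chains in WT (99.8%) and 6 of 9 in Nuc1 (98.8%) did, with Col11a1 at 107% and 130.0%. In oligodendrocyte-lineage-like cells 5 of 6 did in WT (99.3%) and 1 of 1 in Nuc1 (99.5%), with Col5a3 at 533% in WT, in macrophage-like cells 0 of 2 in WT (98.4%), and in the Gldn and Fbln2 cluster 9 of 10 in WT (99.2%) and 6 of 12 in Nuc1 (77.7%). Most genes stood above this reference in every group, so standing above it set no chain apart from genes in general. In astrocyte-like cells of both libraries a smaller share of the chains than of all genes stood above it. In both libraries of astrocyte-like cells the chains above it included Col4a5, Col5a3, Col6a2, Col11a1, Col11a2, Col12a1, Col14a1 and Col16a1, and Col1a1 and Col3a1 were not among them. The fibroblast list is not specific outside fibroblasts: besides its level in astrocyte-like cells, Sfrp1 was at 935 CPM in the Nuc1 cells of Gldn and Fbln2.

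Cells with no UMI of Dcn and Lum were looked at on their own. There were 55 such cells among 108 WT and 271 among 355 Nuc1 astrocyte-like cells. In them Col1a1 was at 39.0 CPM in WT and 32.0 in Nuc1, against 247 and 154 in all astrocyte-like cells. Col11a1 was at 161 and 89.5, against 201 and 97.1. Col12a1 was at 127 and 44.5 and Col6a2 at 150.3 and 78.4, against 123, 45.9, 135 and 80.1 in the same order. Col1a1 was far lower in the cells without Dcn and Lum, whereas Col11a1, Col6a2 and Col12a1 stayed within 1.5-fold of their level in all astrocyte-like cells.

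Within astrocyte-like cells 5 of 19 chains were at least 2-fold lower in Nuc1 (7.17% of all genes measured there) and 0 at least 2-fold higher (4.06%), with a median log2 ratio of -0.65 against -0.13 over all genes. Those lower were Col1a2, Col11a1 at 0.484 (0.435 to 0.539), Col11a2 at 0.465 (0.380 to 0.571), Col12a1 at 0.373 (0.322 to 0.431) and Col14a1 at 0.210 (0.118 to 0.368). Col3a1 was at 1.27 (1.14 to 1.42) and Col1a1 at 0.622 (0.568 to 0.683), but these values depended on which cells were counted. Without cells in which the fibroblast list passed 300 CPM, which left 60 WT and 199 Nuc1 cells, Col3a1 was at 0.803 (0.569 to 1.15) and Col1a1 at 0.370 (0.266 to 0.516), and in cells with no UMI of Dcn and Lum at 1.57 (1.04 to 2.46) and 0.822 (0.599 to 1.15). Col11a1, Col11a2 and Col12a1 had intervals below 1 in both subsets, and Col14a1 was at 0.416 (0.161 to 1.12) in the first. At 0.552 and 0.557, Col11a1 was no longer 2-fold lower in either subset, nor was Col11a2 in the first, at 0.571. The Nuc1 astrocyte-like cells also held Ttr, a marker of choroid plexus epithelium, at 3616 CPM, and the list of dividing-cell genes was at 339.7 in WT and 61.6 in Nuc1, so that these cells differed between the libraries in more than their collagens. Their part in the collagen values was not tested.

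In ciliated-like cells, 14 in WT and 104 in Nuc1, Col11a1 was at 0.512 (0.433 to 0.608) of its WT level and Col12a1 at 0.272 (0.176 to 0.423). Both stayed lower in the 10 WT and 89 Nuc1 cells with no UMI of Dcn and Lum, at 0.464 (0.380 to 0.569) and 0.297 (0.182 to 0.498). Col6a2 was at 0.407 (0.298 to 0.561) over all these cells but at 0.992 (0.565 to 1.88), from 57.1 to 56.7 CPM, in the cells with no UMI of Dcn and Lum. Col1a1 was at 3.30 (1.80 to 6.71) and Col3a1 at 4.60 (2.29 to 10.8), and in the cells with no UMI of Dcn and Lum both turned round, to 0.216 (0.0765 to 0.658) on 7 WT and 11 Nuc1 UMIs and to 0.252 (0.0855 to 0.831) on 6 and 11. Dcn over all ciliated-like cells was at 0.926% of its fibroblast level in WT and 4.02% in Nuc1.

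In the Gldn and Fbln2 cluster, with 22 and 26 cells, the cells of the libraries differed in their markers. Ttr, Gldn and Nkx2-1 summed to 260.0 CPM in WT, where Nkx2-1 gave 207 and 1 gene of the 3 was at 0, and to 8100.3 in Nuc1, where Ttr gave 6263. The fibroblast list summed to 718 in WT, led by Ogn at 377, and to 1624 in Nuc1, led by Sfrp1, with 2 and 1 of its 12 genes at 0. Their part in the ratios was not tested. Col1a1 was at 2.03 (1.81 to 2.29) and Col18a1 at 11.5 (4.25 to 43.9) (4 WT UMIs), while Col3a1 was at 0.584 (0.524 to 0.649), Col6a2 at 0.385 (0.277 to 0.529) and Col8a1 at 0.580 (0.498 to 0.675). Without cells in which the fibroblast list passed 300 CPM, 6 WT and 4 Nuc1 cells were left, and the levels were far lower: Col1a1 was at 14.5 CPM in WT and 10.3 in Nuc1 (2 and 1 UMIs) and Col3a1 at 29.0 and 62.0 (4 and 6 UMIs). The ratios of Col1a1, Col3a1 and Col8a1 then turned round, with intervals that included 1, that of Col18a1 was 1.42 (0.103 to 19.7) on 2 and 2 UMIs, and that of Col6a2 was 0.106 (0.0122 to 0.420). In the 15 WT and 20 Nuc1 cells with no UMI of Dcn and Lum, Col1a1, Col3a1 and Col8a1 kept the directions of the whole cluster. Col1a1 was at 1.98 (1.72 to 2.28), Col3a1 at 0.356 (0.314 to 0.404) and Col8a1 at 0.464 (0.390 to 0.552). Not every chain did so: Col4a1 went from 0.859 to 1.01 (0.671 to 1.52) and Col16a1 from 1.10 to 0.656 (0.360 to 1.19). For oligodendrocyte-lineage-like cells the 10 Nuc1 cells gave wide intervals, such as 1.08 (0.673 to 1.67) for Col11a1. That ratio was 0.244 (0.0491 to 0.742), on 71 WT and 3 Nuc1 UMIs, without cells in which the fibroblast list, which holds Pdgfra, passed 300 CPM, and 1.07 (0.659 to 1.66) in cells with no UMI of Dcn and Lum.

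Genes that fold, process, cross-link or bind collagen were listed by role and set beside the chains in the Ccn3 and Rspo3 cluster. Of 13 measured genes for hydroxylation and glycosylation, 0 were at least 2-fold lower and 2 higher, with a median log2 ratio of -0.07. The lowest were Plod2 (0.721) and P3h1 (0.792) and the highest P3h3 (2.77, from 76.8 to 213 CPM) and P3h2 (5.91, 8 and 31 UMIs). Each belongs to the lysyl or prolyl hydroxylase family, and enzyme activity was not measured here. Of 8 chaperone and export genes none passed 2-fold, with a median of -0.15, the lowest being Tmem38b (0.741) and Creb3l1 (0.802) and the highest Fkbp14 (1.07) and Serpinh1 (1.12), the collagen chaperone HSP47. P3h3 was at least 2-fold higher in Nuc1 in all 6 fibroblast-like clusters, and P3h2 in Cldn11 and Thbd too. At least 2-fold lower were P4ha3 in Penk and Actg2 (28 WT and 5 Nuc1 UMIs), Sec24d in Inmt and Cyp26b1 (6 and 15 UMIs) and Creb3l1 in Cdkn3. The median of the chaperone list ran from -0.39 in Inmt and Cyp26b1 to 0.18 in Cdkn3.

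Of 6 measured genes for propeptide removal 1 was at least 2-fold lower, with a median of -0.32. Tll1 (0.477) and Adamts2 (0.614) were lowest and Bmp1 (0.888) and Adamts14 (1.02) highest. Of 4 cross-linking genes none passed 2-fold, with a median of -0.12. Lox, lysyl oxidase, was lowest at 0.610, from 1917 to 1169 CPM, followed by Loxl1 (0.845), and Loxl2 (1.01) and Loxl3 (1.28) were highest. Of 6 receptors 1 was at least 2-fold lower, with a median of -0.23: the collagen receptor subunit Itga11 (0.153) was lowest, then the uptake receptor Mrc2 (0.808), with Ddr1 (1.12) and Itga1 (1.86) highest. Of 10 basement membrane partners 1 was at least 2-fold lower, with a median of -0.41, Lama5 (0.291, 4 Nuc1 UMIs) and Nid2 (0.534) being lowest and Lamb2 (1.06) and Lama1 (1.32) highest. In other clusters these lists stood further from 0 in places. In Cdkn3, the smallest, the median was -0.82 for propeptide removal, -0.62 for cross-linking, -0.50 for receptors and -0.84 for basement membrane partners, with Adamts2, Lamb2 and Agrn at least 2-fold lower. Lox was at least 2-fold lower in Inmt and Cyp26b1 and in astrocyte-like cells, at ratios of 0.429 and 0.365. Itga11 was so in Penk and Actg2, Cldn11 and Thbd and Top2a too, and Lama5 was higher in Penk and Actg2, at 2.08 (27 WT and 26 Nuc1 UMIs). By count, Penk and Actg2 held 2 receptors and 1 basement membrane partner at least 2-fold lower, and astrocyte-like cells 1 of each. Cldn11 and Thbd and Inmt and Cyp26b1 each held 1 gene for propeptide removal at least 2-fold lower.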

How the data were processed

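The submitters' processing notes name Cell Ranger 3.1.0, STAR 2.7 and Seurat 3.1.0 and 3.1.1, and the genome build is not given in the sources used here. The authors deposited raw UMI counts per gene and barcode from a droplet-based 3′ kit, unnormalized, for 2107 WT and 1929 Nuc1 barcodes (34517542 and 35794685 UMIs). Loading aimed at 3000 cells, from inputs of 5092 (viability 90%) and 5125 (95%). Among gene symbols 99 occur repeatedly, 0 of them collagen chains.

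Barcodes had to show 500 or more genes and no more than 20% of UMIs from 13 mitochondrial genes, which left 1968 WT and 1793 Nuc1 cells. Scrublet in scanpy 1.11.5, at an expected rate of 2%, marked 7 (0.356%) and 13 (0.725%), which were removed; doublets can remain. Seurat 5.3.0 in R 4.3.3 integrated the libraries on 2000 variable genes without collagens and clustered 30 components at resolution 0.5 (seed 1).

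UMIs were summed per gene, cluster and library and given per 1000000 UMIs of the cluster (CPM). Ratios are Nuc1 over WT for genes with at least 20 UMIs, with exact Poisson, Clopper-Pearson or conditional 95% intervals covering counting error only. For a sum of 0 the limit was set at 3 counts. No p-value was computed. Only the functions for the Poisson and ratio intervals were tested on simulated data, which were Poisson counts with known ratios. Clustering, group naming and the alternatives were not tested in this way. Members, marker lists, pathway lists and comparisons were chosen with earlier results of these data known. Named were each chain with at least 100 UMIs where it is highest, each chain past 2-fold with an interval excluding 1, partner chains, and the 2 highest and 2 lowest ratios of each pathway list. Alternatives included thinning to 5000 UMIs and edgeR 4.0.16 scaling.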

Additional observations from a re-analysis of the deposited data

Results flagged for a closer look

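Chains whose counting intervals lay below 1 in at least 1 fibroblast-like cluster and above 1 in another were singled out, since the Nuc1 over WT difference then has opposite signs in cells of the same libraries. Col8a1 was at 0.138 in the Ccn3 and Rspo3 cluster and 2.07 in the Inmt and Cyp26b1 cluster. Col15a1 was at 0.0916 in the Penk and Actg2 cluster and 3.78 in Inmt and Cyp26b1. Col4a5 was at 0.314 in Ccn3 and Rspo3 and 1.32 in Inmt and Cyp26b1. Col18a1 was at 0.781 in Ccn3 and Rspo3 and 2.35 in Inmt and Cyp26b1. The difference between clusters was not tested, since each genotype has 1 library. In all of these the higher value came from the Inmt and Cyp26b1 cluster, which had 53 WT cells against 367 Nuc1 cells, and whose naming genes summed to 295.6 CPM in WT and 1737 in Nuc1, while Ccn3 and Rspo3 summed to 3679 and 953 in their own cluster.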

How the results depend on the processing

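The share of collagen UMIs in all fibroblast-like cells, 1.09% in WT and 0.737% in Nuc1, was lower in Nuc1 under every alternative run. It was 1.13% and 0.768% with at most 10% mitochondrial UMIs, 1.19% and 0.808% with mitochondrial genes out of the total, 1.09% and 0.747% after thinning to 5000 UMIs, 1.09% and 0.745% as a mean over cells, 1.08% in WT after merging without integration, and 0.733% in Nuc1 without cells holding a Y-linked UMI. Pairs of a chain and a cluster at least 2-fold higher in Nuc1 numbered 10, but 5 after thinning and 4 among those with at least 100 UMIs. At a 1.5-fold limit 69 pairs were lower and 17 higher. No share of all genes was taken for these counts of pairs. For the 132 pairs in fibroblast-like clusters, 1515 ratios were recomputed under 13 settings. Of these, 1409 kept their direction, with an interval that excluded 1 in both runs or included it in both. Another 22 crossed 1 with both intervals including it, 41 no longer excluded 1 and 40 newly did. The other 3 had excluded 1 and crossed it. Those were Col14a1 in Penk and Actg2, 1.85, which was 0.549 at resolution 0.2 and 0.740 after merging without integration, and Col18a1 in Top2a, 1.29, which was 0.741 without cells over 1000 CPM of dividing genes. Ratios outside fibroblasts were less stable. There were 627 for 48 pairs under 14 settings. Of these, 519 kept their direction, with an interval that excluded 1 in both runs or included it in both. Another 29 crossed 1 with both intervals including it, 32 no longer excluded 1 and 31 newly did (4 of them across 1). The other 16 had excluded 1 and crossed it. Without cells over 300 CPM of fibroblast markers, Col3a1 in astrocyte-like cells became 0.803, Col1a1 and Col3a1 in ciliated-like cells 0.201 and 0.357, Col1a1 in macrophage-like cells 2.57, and Col1a1, Col3a1 and Col8a1 in Gldn and Fbln2 0.712, 2.14 and 1.21. In cells with no UMI of Dcn and Lum, Col1a1 and Col3a1 in ciliated-like cells became 0.216 and 0.252 and Col1a1 in macrophage-like cells 1.48. Without cells holding a Y-linked UMI, Col3a1 became 0.906 in astrocyte-like and 0.986 in ciliated-like cells. After thinning, Col1a1 in ciliated-like cells became 0.824 and Col12a1 in Gldn and Fbln2 1.07. Col3a1 in astrocyte-like cells was 0.531 with at most 10% mitochondrial UMIs, and Col1a1 in macrophage-like cells 1.003 with doublets kept. The cause was not tested. Cldn11 and Thbd or Cdkn3 formed no cluster of their own in 6 settings, where pair counts were not computed. The ciliated-like and macrophage-like groups formed none at resolution 0.2, nor did the ciliated-like, oligodendrocyte-lineage-like and Gldn and Fbln2 groups with at most 10% mitochondrial UMIs. No paired analysis was possible because there is only 1 library of each genotype. Depth limits the 19 chains under 100 UMIs, the 14 WT ciliated-like and 10 Nuc1 oligodendrocyte-lineage-like cells, and Col1a2, Col4a2 and Col5a1, which were far rarer than their partners.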
